A study of Rattus norvegicus with 6 samples.

Results

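The 9 genes described here mark fibroblasts through proteins other than the fibrillar collagens and elastin: Thy1, Pdgfra, Postn, Tcf21, Ddr2, Fap, Dpt, Gsn and Clec3b. They were taken by symbol from the deposited count table, and all 9 were found, each as 1 of 21648 genes. All 9 also passed the filter on low counts, which left 14253 genes for testing. The cultures were neonatal rat ventricular myocytes (NRVM), wild-type heart muscle cells isolated at postnatal day 3 by trypsin and collagenase digestion. Both groups shared a step in which fibroblasts were left to attach to plastic and were left behind, plating with bromodeoxyuridine, a thymidine analog that hampers dividing cells, and a later switch to medium with insulin, transferrin and selenium. Of the 6 libraries, 3 came from cultures given DMSO, the solvent, and 3 from cultures given 10 µM of 915, a compound that activates the ERRs (estrogen-related receptors, nuclear receptors of energy metabolism), each for 72 h. The question addressed here was whether markers of the fibroblasts that remain in such cultures move by 1 common factor with 915.

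Fibroblasts of the heart descend largely from the epicardium, depend on growth factors and the collagen around them, and take on an activated state in injury, in which they secrete more matrix. Their markers differ in kind. Pdgfra and Ddr2 are receptor tyrosine kinases, Thy1 and Fap are cell surface proteins, Tcf21 is a transcription factor of the lineage, Gsn cuts actin filaments, and Postn, Dpt and Clec3b encode secreted proteins. Postn and Dpt act in the matrix, so the set is not free of matrix genes. None of the 9 is found in fibroblasts alone: in rodents Thy1 is also carried by neurons and T cells, for example, and Gsn is made by many cell types.

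Of the 9 genes, 7 fell with 915, 1 rose and 1 did not pass the test, and the sizes were far apart. Thy1 and Clec3b were 5.54-fold and 5.34-fold lower, Fap, Dpt, Ddr2, Tcf21 and Gsn were between 1.33-fold and 1.58-fold lower, Postn had a log2 fold change of 0.04, and Pdgfra was 1.22-fold higher. The calls came from edgeR's quasi-likelihood test (p-values adjusted over all genes tested by the Benjamini-Hochberg method, threshold 0.05). Among all 14253 genes tested, 25.5% were called lower and 24.3% higher, or 49.8% in either direction. The median log2 fold change of the 9 genes was −0.55, beside −0.01 over all genes. In whole-culture RNA, fewer cells of a type and less RNA per cell cannot be told apart.

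Counts over genes summed to between 36799845 and 40010826 with DMSO and to between 30639244 and 38078137 with 915. Levels are CPM, counts that the authors scaled to the size of each library. The limit set by a count of 0, which is 3 counts, was 0.0698 to 0.0917 CPM and covers counting error only. The labels call the libraries biological replicates without saying that they came from separate isolations, so the spread behind every p-value is that of these libraries and may be technical. CPM is not scaled to gene length, so the values below compare libraries within a gene, not genes with each other. All 12 cardiomyocyte markers that matched were tested, and their summed level was 21848 to 23159 CPM with DMSO and 30314 to 30811 CPM with 915.

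The start of 3 of these genes is shown because they stand for the 3 directions seen, a gene that rose, one that was not called and one that fell. Each is the 250 bases before the annotated start, from the RefSeq promoter table of build GRCr8, which held 6 of the 9 genes (Pdgfra, Postn, Dpt, Fap, Gsn and Tcf21). Capitals mark CAGCTG, an E-box of the kind that basic helix-loop-helix factors such as TCF21 recognise, and TATAAA, the TATA box, each sought on both strands.
Pdgfra promoter (chr14:33408517-33408766, minus strand): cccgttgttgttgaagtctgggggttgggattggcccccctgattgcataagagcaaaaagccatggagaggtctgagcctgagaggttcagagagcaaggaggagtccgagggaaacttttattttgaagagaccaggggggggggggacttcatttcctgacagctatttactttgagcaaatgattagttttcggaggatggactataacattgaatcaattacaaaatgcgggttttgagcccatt
Postn promoter (chr2:140677811-140678060, plus strand): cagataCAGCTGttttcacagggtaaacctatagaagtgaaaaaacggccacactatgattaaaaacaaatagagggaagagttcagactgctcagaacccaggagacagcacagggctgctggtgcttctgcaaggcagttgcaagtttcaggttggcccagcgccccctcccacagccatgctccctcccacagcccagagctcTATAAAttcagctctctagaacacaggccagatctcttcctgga
Dpt promoter (chr13:79656091-79656340, plus strand): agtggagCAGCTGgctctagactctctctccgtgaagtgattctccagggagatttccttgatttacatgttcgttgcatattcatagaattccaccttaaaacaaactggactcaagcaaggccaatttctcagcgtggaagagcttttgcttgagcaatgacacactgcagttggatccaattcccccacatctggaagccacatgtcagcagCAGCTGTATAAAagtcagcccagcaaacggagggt
The Dpt window held 2 E-boxes and 1 TATA box, the Postn window 1 of each, and the Pdgfra window neither. The windows of Fap, Gsn and Tcf21, genes that also fell, held neither. No window was available for Thy1, Clec3b and Ddr2, so what is typical of the fallen genes in these motifs cannot be said. Of 33469 windows of the same length, 12.0% held CAGCTG and 12.9% held TATAAA. The ERR element TCAAGGTCA, found in 0.388% of those windows, and its shorter core AAGGTCA, found in 3.99%, matched in 0 of the 6 windows. The TEAD motif GGAATG (12.1% of windows) and the CArG box of serum response factor (1.497%) also matched in 0 of the 6, and the SMAD motif CAGAC (42.9%) matched in 5. These are matches of letters and say nothing of binding.

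The surface protein genes moved unequally. Thy1 (ENSRNOG00000006604) encodes a small lipid-anchored glycoprotein used to sort fibroblasts. Its level was 24.4, 24.6 and 21.2 CPM with DMSO and 3.43, 5.41 and 3.52 CPM with 915, given here and below in the order of libraries 1 to 3. The groups were far apart, and 915 library 2 was the highest of its group. The log2 fold change was −2.47 ± 0.141 (SE; edgeR adjusted p = 4.28e-09), and 65 of the 14253 genes tested had a lower one. Fap (ENSRNOG00000005679), a serine protease of activated fibroblasts, was counted at 10.6, 9.51 and 10.4 CPM with DMSO and at 6.36, 6.45 and 5.90 CPM with 915. All 915 libraries lay below all DMSO libraries, and the log2 fold change was −0.66 ± 0.103 (SE; edgeR adjusted p = 1.11e-04). Thus both fell, Thy1 by 1.82 more than Fap on the log2 scale.

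The receptor genes went in opposite directions. Pdgfra (ENSRNOG00000002244), the receptor for platelet-derived growth factors that marks cardiac fibroblasts from development on, was at 111, 111 and 108 CPM with DMSO and 126, 133 and 129 CPM with 915. The groups did not overlap, and Pdgfra rose by 0.28 ± 0.0475 on the log2 scale (SE; edgeR adjusted p = 2.08e-04). Ddr2 (ENSRNOG00000002881), a receptor activated by fibrillar collagen, was at 181, 170 and 180 CPM with DMSO and 115, 121 and 114 CPM with 915. Its log2 fold change was −0.55 ± 0.0480 (edgeR adjusted p = 3.72e-07), again without overlap. The ratio of Pdgfra to Ddr2 in CPM therefore went from 0.612, 0.655 and 0.6005 with DMSO to 1.10, 1.10 and 1.13 with 915.

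The transcription factor gene Tcf21 (ENSRNOG00000016700), needed for epicardial cells to become fibroblasts, was uneven among the 915 libraries. It was at 35.6, 35.98 and 34.95 CPM with DMSO and at 22.6, 22.8 and 31.6 CPM with 915. All 3 libraries of the 915 group lay below the DMSO group, but library 3 was nearer to DMSO than to the rest of its own group. The log2 fold change was −0.42 ± 0.106 (SE; edgeR adjusted p = 4.51e-03). Without 915 library 3 it was −0.60 (edgeR adjusted p = 2.34e-05), and without 915 library 1 it was −0.33 (edgeR adjusted p = 0.0349). Gsn (ENSRNOG00000018991), for the actin-severing protein gelsolin, was at 222, 237 and 210 CPM with DMSO and at 161.0, 160.0 and 164 CPM with 915. Its log2 fold change of −0.42 ± 0.0519 (edgeR adjusted p = 1.35e-05) was close to that of Tcf21, while its 915 libraries were nearly equal. The counts do not separate the secreted and the cytoplasmic form of gelsolin.

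The genes of secreted proteins covered nearly the whole range. Clec3b (ENSRNOG00000004540), which encodes the plasminogen-binding protein tetranectin, was at 105, 108 and 96.5 CPM with DMSO and at 18.6, 18.6 and 18.8 CPM with 915. Its log2 fold change of −2.42 ± 0.0616 had the smallest adjusted p of the 9 (edgeR adjusted p = 2.90e-12), and 69 of all genes tested had a lower change. Dpt (ENSRNOG00000002947), for dermatopontin, a small protein of the matrix around collagen fibres, was at 87.4, 91.3 and 92.0 CPM with DMSO and 55.5, 56.4 and 59.0 CPM with 915. The groups were apart, with a log2 fold change at −0.61 ± 0.0536 (edgeR adjusted p = 3.72e-07). In RefSeq the span of Dpt is overlapped by 1 long noncoding RNA gene, whose reads cannot be told from those of Dpt where strand is not known. Postn (ENSRNOG00000012660), for periostin, a matricellular protein widely used to mark activated fibroblasts, was at 1615, 1581 and 1624 CPM with DMSO and 1538, 1639 and 1615 CPM with 915. These groups overlapped, and the log2 fold change of 0.04 ± 0.0443 did not pass (edgeR adjusted p = 0.473). Scaled by library totals alone, the value was −0.016.

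**Figure D1:**
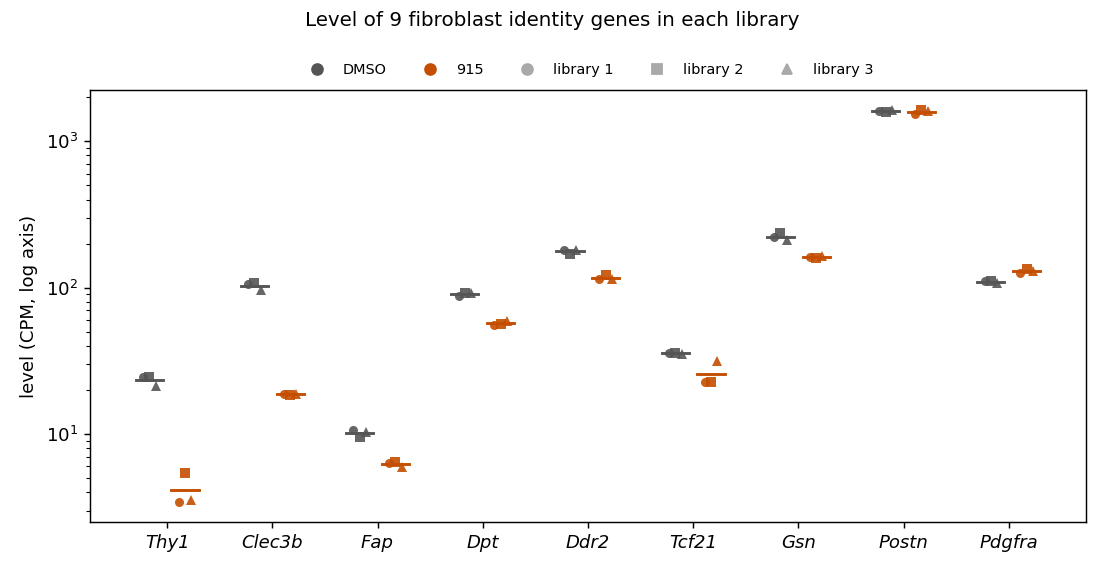
Level in CPM on a log axis of each of the 9 genes, ordered by fold change, in DMSO (grey) and 915 (orange) libraries, with symbols for libraries 1 to 3 and bars for group means. Thy1 and Clec3b lie far lower with 915, Postn overlaps between groups and Pdgfra is higher.

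The 9 genes did not move by 1 common factor. To compare changes free of library scaling, the log2 ratio of each tested gene to each of the 9 was taken within each library and fitted across all genes with limma, and of the 36 pairs among the 9 genes 26 differed in their change (larger of the 2 adjusted p-values of a pair under 0.05). In the same fit, the share of all genes tested whose change differed was 98.7% against Clec3b, 98.4% against Thy1, 78.7% against Fap, 77.8% against Dpt, 75.9% against Ddr2, 68.2% against Gsn, 59.4% against Pdgfra, 50.1% against Tcf21 and 47.6% against Postn. Unequal change is therefore the usual case in these libraries. The count of 26 of 36 lies within the range of these shares, so it is near the background and says nothing particular of these genes. Because the noise of the common denominator enters every ratio, the moderated variance of limma can be too small here. With the ordinary variance of each ratio, an alternative chosen after the data were seen, 24 of the same pairs differed. The shares of all genes were then 97.4% against Clec3b, 96.7% against Thy1, 72% against Fap, 69.9% against Dpt, 68.7% against Ddr2, 57.1% against Gsn, 46.4% against Pdgfra, 32.5% against Postn and 15.7% against Tcf21. The intervals below are from the fit with ordinary variance unless stated. That fit called fewer pairs, but for some pairs its interval is narrower than that of the moderated fit. Fits that left out a library used the moderated variance.

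By size, a grouping made after the values were seen, the genes formed a deep group of 2, a middle group of 5, and Postn and Pdgfra. Thy1 minus Clec3b was −0.06 on the log2 scale (95% interval −0.66 to 0.54, adjusted p = 0.801 in limma with ordinary variance). The interval is wide, so a common factor of these 2 genes is not shown. Without 915 library 2, where Thy1 was high, the difference was −0.27 (adjusted p = 0.0476 in limma with moderated variance). The ratio of Thy1 to Clec3b was 0.232, 0.228 and 0.219 with DMSO and 0.184, 0.291 and 0.187 with 915, so the groups overlapped.

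Among Fap, Dpt, Ddr2, Tcf21 and Gsn, 1 of 10 pairs differed, Dpt and Gsn, in both fits. Because these genes were grouped for their like size, a low count was set in advance and does not show a group that moves together. Of all genes tested, 50.1% (against Tcf21) to 78.7% (against Fap) differed from these genes in the moderated fit. With ordinary variance the shares were 15.7% to 72%. Dpt fell by 0.20 more than Gsn on the log2 scale (95% interval of Dpt minus Gsn −0.36 to −0.04, adjusted p = 0.0465 in limma with ordinary variance). Without DMSO library 3, 915 library 1 or 915 library 2 this pair no longer passed (adjusted p = 0.0809, 0.0843 and 0.0552 in limma with moderated variance). The other 9 pairs in this group did not pass, which does not show that they moved alike. Ddr2 minus Fap was 0.10 with an interval of 0.0041 to 0.20 that does not include 0 (adjusted p = 0.0625 in limma with ordinary variance). In the moderated fit the interval was wider and included 0 (−0.13 to 0.33, adjusted p = 0.415 in limma with moderated variance). The ratio of Ddr2 to Fap was 17.1, 17.9 and 17.3 with DMSO and 18.1, 18.8 and 19.4 with 915, without overlap. Fap minus Gsn, the widest gap of the group, was −0.24 (−0.53 to 0.05). Fap minus Dpt was −0.04 with an interval of −0.29 to 0.21. For Ddr2 minus Dpt the difference was 0.06 (−0.11 to 0.24). The ratio of Ddr2 to Dpt was 2.07, 1.86 and 1.95 with DMSO and 2.07, 2.15 and 1.94 with 915. Tcf21 minus Gsn was −0.02, but its interval of −0.45 to 0.40 leaves room for a sizeable difference. Without DMSO library 2, in which Gsn was highest, Gsn also differed from Ddr2 and from Fap in limma with moderated variance. Ddr2 minus Gsn was then −0.21 (moderated limma adjusted p = 6.66e-03) and Fap minus Gsn −0.33 (moderated limma adjusted p = 0.0339).

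Because the groups were made by size after the values were seen, differences between them were set in advance. All 10 pairs of a deep with a middle gene differed in both fits, by 1.76 to 2.06 on the log2 scale. Of all genes tested, 98.4% differed from Thy1 and 98.7% from Clec3b in the moderated fit. With ordinary variance the shares were 96.7% and 97.4%, so the count of 10 is near the background. Gsn minus Clec3b, for example, was 2.00 (95% interval 1.94 to 2.05, adjusted p = 1.77e-04 in limma with ordinary variance). Its interval in the moderated fit was wider, 1.84 to 2.15. The ratio of Gsn to Clec3b was 2.11, 2.20 and 2.18 with DMSO and 8.64, 8.61 and 8.73 with 915. Postn and Pdgfra each differed from all 5 middle genes in the moderated fit, by 0.45 to 0.93. With ordinary variance the pairs of Postn and of Pdgfra with Tcf21 did not pass (limma adjusted p = 0.0914 and 0.0551). Pdgfra also rose relative to Postn, by 0.24 (95% interval 0.17 to 0.32, adjusted p = 8.64e-03 in limma with ordinary variance). The moderated interval of that pair was 0.12 to 0.37. The widest gap was that of Thy1 to Pdgfra, −2.75 (−3.30 to −2.20), a 6.81-fold fall of their CPM ratio. That ratio was 0.220, 0.220 and 0.196 with DMSO and 0.0273, 0.0407 and 0.0272 with 915. Of the 36 ratios, 27 did not overlap between the groups, and of the ratios of all tested genes to the 9 genes, one denominator at a time, 74.8% did not overlap, so the count is near the background and says nothing particular of these genes. For a single ratio the exact two-sided permutation p cannot go below 0.1 with 3 against 3 libraries, and each of those 27 reached it.

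**Figure D2:**
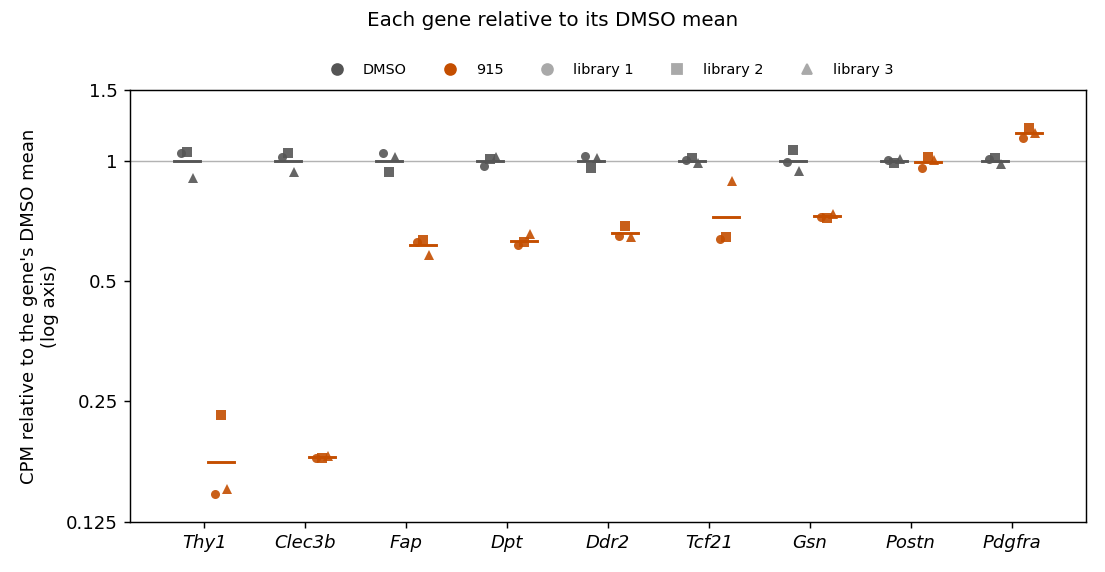
CPM of each gene in each library divided by the gene's DMSO mean, on a log axis, with bars for group means and symbols for libraries 1 to 3. A common factor would place the orange points of all genes at 1 height; they lie near 0.2 for Thy1 and Clec3b, between 0.5 and 1 for the next 5 genes, around 1 for Postn and above 1 for Pdgfra.

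**Figure D3:**
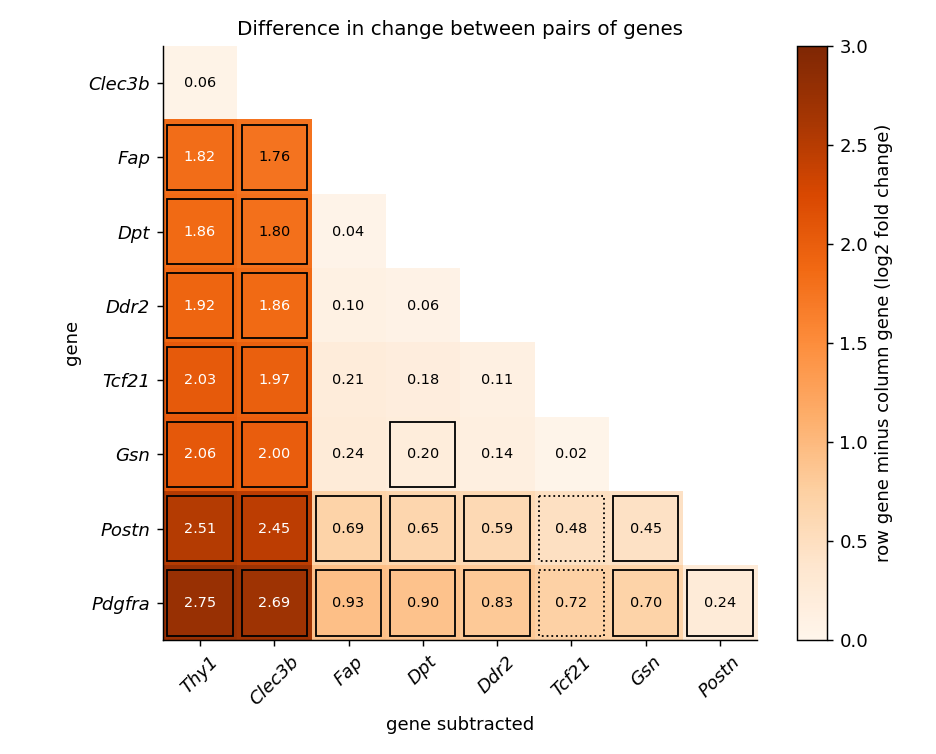
Difference in log2 fold change for each of the 36 pairs, as row gene minus column gene, with genes ordered by fold change. A solid frame marks the 24 pairs that differed in both limma fits and a dotted frame the 2 that differed only with moderated variance; pairs within the middle group are unframed except Dpt and Gsn.

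Relatives and partners of these genes, from lists chosen with earlier results of these data known, fell in part. The counts of each list, here and below, stand beside 25.5% of all genes tested called lower and 24.3% called higher. Of the 4 PDGF ligand genes and Pdgfrb, the gene of the other receptor, 4 were lower and 0 higher, at a median log2 fold change of −0.63. The ligand genes Pdgfb and Pdgfd fell 3.78-fold and 2.07-fold and the receptor gene Pdgfrb 1.18-fold, whereas Pdgfa, whose product binds PDGFRα alone, did not pass (log2 fold change 0.07, edgeR adjusted p = 0.290). Among relatives of gelsolin 3 of 6 were lower and 2 higher (median −0.33). Capg, which caps actin filaments, fell 1.32-fold, while Flii and Svil rose 1.15-fold and 1.12-fold. Scaled by library totals alone, 1 gelsolin relative was higher. Of the 4 tested peptidases related to Fap 2 were lower and 0 higher (median −0.53), Dpp4 by 2.80-fold and Dpp6 by 2.04-fold. Tgfbi, the other gene of the periostin family, fell 1.56-fold where Postn did not pass. The procollagen protease gene Bmp1 and the tenascin gene Tnxb, listed with it as matrix partners, fell 1.304-fold and 1.34-fold, so that 3 of 3 tested were lower (median −0.42).

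Other fibroblast genes were also spread widely. Of 14 tested genes of resting and adventitial fibroblasts 9 were lower and 1 higher, with a median of −0.76 and a range of −1.67 to 0.54, and the row matched to Cd248 by identifier, which carries a placeholder symbol in the table, was at 0 in all 6 libraries. Igfbp6, which binds insulin-like growth factors, fell 3.19-fold, the ferritin receptor gene Scara5 2.78-fold, and Pcolce, an enhancer of collagen processing, 1.69-fold. Lpl, the lipoprotein lipase gene, which heart muscle cells also express, rose 1.46-fold. The same list held genes that did not pass, such as Abca8a at −0.01 and Sfrp1 at −0.05 (edgeR adjusted p = 0.966 and 0.520). Of 16 transcription factors of the lineage 13 were lower and 1 higher (median −0.47, range −1.82 to 0.95). Osr2, Osr1 and Zeb2 fell 3.54-fold, 2.98-fold and 1.91-fold, and the homeobox gene Meox1, known for its part in fibroblast activation, rose 1.93-fold from 1.87 ± 0.228 to 3.48 ± 0.427 CPM (SD, n = 3 each).

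Of 14 tested genes of activated fibroblasts 11 were lower and 1 higher (median −0.74, range −1.91 to 0.20). The collagen-binding integrin gene Itga11 fell 3.75-fold, the cartilage intermediate layer protein gene Cilp 3.02-fold and the crosslinking enzyme gene Lox 2.83-fold, while Aebp1 rose 1.15-fold. Fap moved in the direction of most of this list and Postn, also a marker of activation, did not pass. Of 16 matrix genes 13 were lower and 3 higher (median −0.80, range −2.15 to 0.98). Eln, Col5a1 and Col3a1 fell 4.43-fold, 2.68-fold and 2.42-fold, and Mgp and Dcn, for matrix Gla protein and decorin, rose 1.97-fold and 1.398-fold. Pdgfra was thus not alone among fibroblast genes in rising.

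Markers of other cells moved in the same libraries, and their part in the changes of the 9 genes was not tested. Of all genes tested, 49.8% were called in either direction. The called shares of macrophage, endothelial, T cell and neuron markers were not far from that, though most of those called were lower. Of 12 cardiomyocyte markers 11 were higher and 1 lower (median 0.47), with Tnni3, Mb and Myh6 at 2.10-fold, 1.81-fold and 1.76-fold higher and the atrial light chain gene Myl7 1.82-fold lower. Mural cell markers (smooth muscle, pericytes) had 6 of 10 lower and 2 higher (median −0.79), and their summed level went from between 2707 and 2858 CPM to between 1729 and 1816 CPM. A large part of that sum was Des, which rose, at a mean of 924 CPM with DMSO and 1090 CPM with 915. Notch3, Tagln and Cnn1, of mural cells, fell 3.80-fold, 3.23-fold and 2.92-fold, and Abcc9 and Des rose 1.28-fold and 1.22-fold. Endothelial markers, 5 of 10 lower and 1 higher (median −0.56), summed to 78.4 to 81.9 CPM with DMSO and 64.9 to 66.2 CPM with 915. Esam, Tek and Flt1 fell 2.39-fold, 1.504-fold and 1.45-fold, and Kdr rose 1.20-fold. Without DMSO library 3 or 915 library 3 the lower endothelial markers numbered 3, and without DMSO library 2 the higher ones numbered 2. Macrophage and leukocyte markers, 6 of 12 lower and 0 higher (median −0.50), summed to 226 to 244 and 120 to 146 CPM. Csf1r, Mrc1 and Lyz2 were 2.46-fold, 2.31-fold and 2.06-fold lower. A large part of the macrophage sum was Lyz2 alone, at a mean of 128 CPM with DMSO and 60.1 CPM with 915. Cd68, at 47.9 CPM with DMSO and 40.6 CPM with 915, did not pass (edgeR adjusted p = 0.106). Mesothelial and epicardial markers had 5 of 8 lower and 0 higher (median −1.03) and sums of 96.2 to 100.3 and 46.1 to 55.9 CPM. Among them, Upk3b, Lrrn4 and Krt19 fell 7.39-fold, 2.96-fold and 2.43-fold. Of 12 cell cycle genes 12 were lower (median −1.64), and their sums were 552 to 599 and 221 to 235 CPM, with Ccna2, Cdk1 and Cdc20 falling 4.03-fold, 3.42-fold and 3.09-fold.

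For Thy1 the other cells known to carry it were looked at as well. Of the T cell markers, Cd3e was at 0 in all 6 libraries and Cd3d, Cd3g and Cd5 were at or near the limit of detection and did not pass the filter, while Cd4 was at 4.94 and 2.17 CPM (means with DMSO and 915). The 8 matched markers summed to 5.92 to 7.21 CPM with DMSO and 3.27 to 3.86 CPM with 915. Of the 4 tested, Cd4, also made by rat macrophages, fell 2.20-fold. Cd2 fell 3.46-fold, from a mean of 0.33 CPM with DMSO to 0.09 CPM with 915, the latter near the limit of detection. Cd8a and Lck did not pass (log2 fold change 0.31 and −0.21, edgeR adjusted p = 0.537 and 0.601). The median of the 4 was −0.67. Without DMSO library 1 or 915 library 1, 1 T cell marker was lower. Markers of neurons and Schwann cells were detected, with 6 of 11 lower and 0 higher (median −0.70) and sums of 63.8 to 69.9 and 39.0 to 45.1 CPM. The neurofilament genes Nefm and Nefl fell 4.54-fold and 3.86-fold, and the glial gene S100b 1.63-fold.

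**Figure D4:**
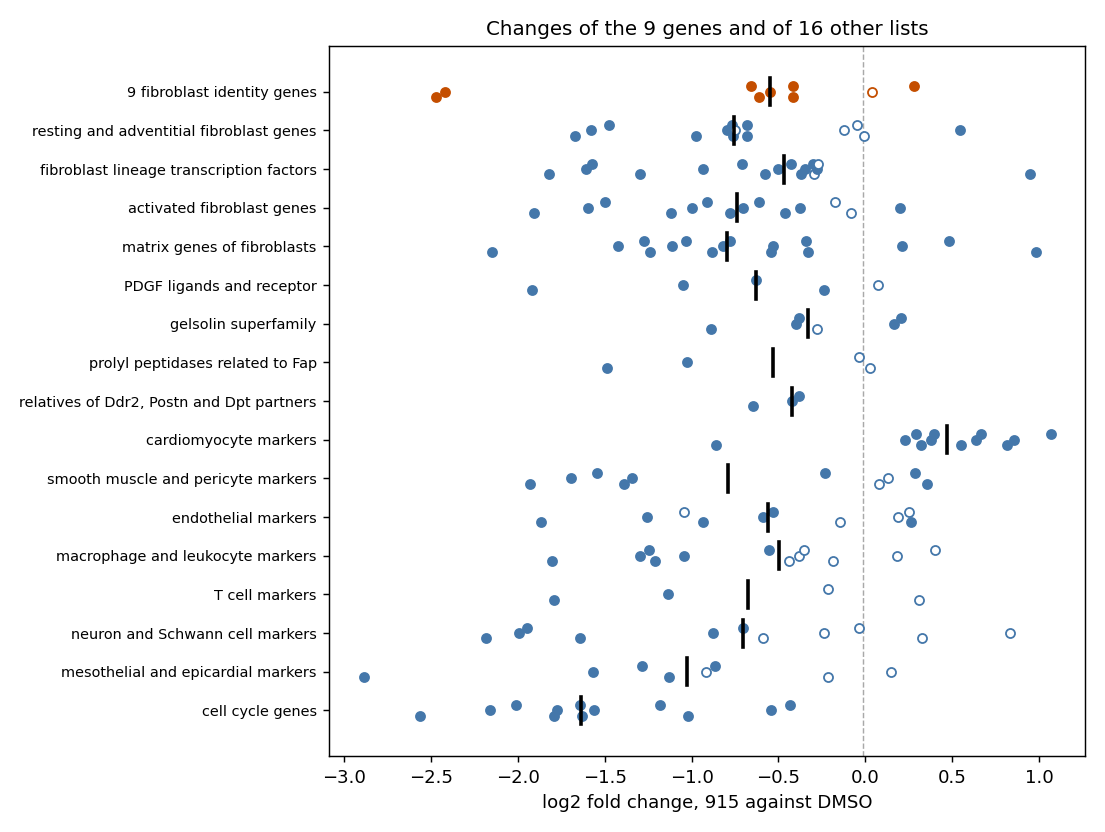
Log2 fold change with 915 of each tested gene in the set of 9 (orange) and in 16 other lists (blue); filled points passed the edgeR test, open points did not, the black bar is the list's median and the dashed line the median of all genes tested. The 9 genes span −2.47 to 0.28 and the matrix genes −2.15 to 0.98, and the cardiomyocyte list is the one with its median above 0.

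Outside these lists, the genes whose log2 CPM followed Thy1 most closely over the 6 libraries were Hspa12a, Iqgap3 and Tspan17 (Pearson r = 0.999, 0.999 and 0.999), and those that followed Pdgfra were Fbxo40, Mrps18c and Letm1 (r = 0.999, 0.997 and 0.997). These correlations describe 6 libraries in 2 groups, so any gene with a clear difference between the groups and little spread scores high. Hspa12a had a log2 fold change of −0.85, Iqgap3 of −1.75 and Tspan17 of −1.29, each smaller than that of Thy1, while Fbxo40, Mrps18c and Letm1 were at 1.00, 0.39 and 0.25.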

How the data were processed

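RNA was sequenced from 3 DMSO and 3 915 cultures. The gene counts were made by the authors with STAR 2.5.1a, Subread and featureCounts 1.4.6-p5 on build Rnor_6.0, per the submitters' processing notes. The strand setting and the treatment of multi-mapped reads: not given in the sources used here. The deposited CPM equal the counts over 1 total per library, of which the table holds 93.1% to 93.7%. Of 22641 rows 993 repeated an Ensembl identifier with the same counts and were dropped.

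Counts were filtered with filterByExpr, scaled by TMM and tested with edgeR 4.0.16 (R 4.3.3) on group alone, with no replicate block; SE is the log2 fold change over the square root of F. Pairs of genes were compared with limma 3.58.1 on log2 ratios (prior count 2). On simulated counts for 14253 genes, 98 of 98 genes changed 4-fold and 93 of 100 changed 2-fold were called. The simulation changed few genes and gave all genes the same variability between libraries, unlike the data. Its shares therefore check the code and do not measure sensitivity in these libraries.

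The 9 genes and 16 lists (181 entries, 1 a second name of a listed gene; 165 genes matched, 3 of them, Cd248, Col1a2 and Cd5, by identifier through the reference because the table gives them placeholder symbols) were chosen with earlier results of these data known. The rule for named genes took all 9. From each list it took up to 3 genes of smallest p under the threshold and up to 2 that went against most of the list. It also took the 3 genes (at least 5 CPM on average) most correlated with the lowest and the highest of the 9 (pseudocount 0.1 CPM). Genes named beside the 9 outside this rule (Pdgfa, Abca8a, Sfrp1, Cd248, Cd3e, Cd3d, Cd3g, Cd5, Cd8a, Lck and Cd68) were chosen after their values were seen. Alternatives were DESeq2 1.42.0, limma-voom, other scalings, filters and prior counts, the replicate block and leaving out each library.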

Additional observations from a re-analysis of the deposited data

How the results depend on the processing

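The calls of all 9 genes (7 lower, 1 higher, Postn not called) were the same under the 12 alternatives, with 1 reversal of an uncalled sign: scaled by library totals alone, the log2 fold change of Postn was −0.016 (edgeR adjusted p = 0.779). That scaling moved the median of all genes from −0.01 to −0.07 and left 1 gelsolin relative higher in place of 2. The log2 fold change ranged from −2.70 to −2.35 for Thy1, from −2.47 to −2.38 for Clec3b, from −0.60 to −0.33 for Tcf21 and from 0.22 to 0.30 for Pdgfra. In limma with moderated variance, the pairs that differed numbered 24 to 27 of 36 when 1 library was left out. They numbered 25 without a filter on low counts and 26 with a prior count of 0.5 or 5. Postn minus Tcf21 no longer passed (limma adjusted p from 0.0535 to 0.154) without the filter, with the block, with ordinary variance, or without any one library other than 915 library 3. When 1 library was left out, lower T cell markers numbered 1 to 2, lower endothelial markers 3 to 5 and higher ones 1 to 2; the cause was not tested. The labels number replicates in both groups but tie no number to a common isolation, and same-numbered libraries did not deviate together (r = −0.03, −0.11 and −0.09). With the replicate number as a block, 1 of the 9 genes was higher and 7 lower, 25 pairs differed, and 6193 genes in all were called in place of 7096. With 3 libraries a group, small differences such as those within the middle group are at the limit of what these data resolve.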
